A study of Mus musculus with 1203 samples.

Results

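The genes described here are 10 effector genes induced by interferon, Bst2, Ifi27l2b, Ifi27, Isg15, Ifit1, Ifit2, Ifit3, Rsad2, Usp18 and Mx1, followed through single cells of the mouse colon. They are 10 of the 46517 mouse genes in the deposited table, matched by symbol, and they were chosen by name with their levels in these cells already known, so their difference between the genotypes is described and not tested. Type I and type III interferons are secreted when a cell senses foreign nucleic acid, and they signal through JAK kinases to a complex of transcription factors that contains IRF9. That complex binds a short element in front of its target genes, whose products block virus entry, translation and release or dampen the signal again. In the gut, epithelial cells respond mainly to type III interferon, and many of them hold a low interferon signature at rest.

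Colonic cells of 11-week-old female mice were compared by genotype. The mice labelled VillinCre;IPMKf/f, here called labelled knockout, carry floxed alleles of Ipmk, the gene for inositol polyphosphate multikinase, with Cre under the villin promoter, which is active throughout the intestinal epithelium, and the others are labelled wt. Cells that stained for the epithelial protein EPCAM and for SIGLEC-F, a surface marker of tuft cells, had been placed 1 to a well and profiled by a modified Smart-seq2 protocol; a smaller set of wells carries the label epithelial. No label names an animal. Labelled knockout cells filled plate sets 2, 4, 5 and 7, and wt cells filled plate sets 1, 3 and 6. No plate set held both genotypes, so plate set and genotype cannot be told apart, each genotype is 1 sample, and no p-value can be given. The SD values below are between plate sets, which may be technical.

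Of 1165 wells analysed, 856 had at least 1000 genes above 0 TPM and were kept. Tuft cells, the chemosensory cells of the gut lining, were taken as the cells with Trpm5, their cation channel, at 50 TPM or more and Dclk1, a kinase that marks them, at 100 TPM or more. They were 56.8% of the kept cells, and 38.5% of them were labelled knockout and 61.5% wt. Labelled knockout plate sets 2, 4, 5 and 7 held 53, 70, 55 and 9 tuft cells. Wt plate sets 1 and 3 held 57 and 74, and plate set 6 the remaining 56.2% of wt tuft cells. The summed level of 14 tuft cell markers was 1754 to 2775 TPM in these labelled knockout plate sets and 1935 to 2913 TPM in the wt ones. The remaining kept cells, called other cells here, were 44.3% labelled knockout and 55.7% wt, and their tuft marker sums were 58.7 to 159.2 TPM in labelled knockout and 198.3 to 292.04 TPM in wt plate sets. Their colonocyte marker sums were 3727 to 8611 TPM in labelled knockout and 1832 to 4928 TPM in wt plate sets. Plate set 7 stands apart in holding 9 tuft cells, the fewest of any plate set. Read depth is unknown, since TPM keeps none. Median genes detected per tuft cell averaged 2415 ± 308.9 over the labelled knockout plate sets and 2744 ± 120 over the wt ones (SD, n = 4 and 3 plate sets). Ipmk itself was not lower in the cells labelled as its knockout: it averaged 5.21 ± 5.11 TPM in labelled knockout and 1.83 ± 0.32 TPM in wt tuft cells, and 18.4 ± 6.92 and 6.35 ± 1.19 TPM in other cells (SD, n = 4 and 3 plate sets). A value per gene also counts reads from exons outside a floxed segment, and the labels do not say which exon is floxed. The genotypes below are those of the labels.

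Most promoters at hand share a sequence. The interferon-stimulated response element has the core GAAANNGAAA, or TTTCNNTTTC on the opposite strand. RefSeq promoter windows, running from 250 bases before to 50 bases after the start site (GRCm38.p6), were given for 6 of the 10 genes. Both strands were searched and overlapping matches were counted. Of the 6 genes, 5 had a window with the core, as did 3.99% of all 27025 genes with a window. The stretches with the core are printed 5′ to 3′ on each gene's own strand, with every match in capitals.
Isg15: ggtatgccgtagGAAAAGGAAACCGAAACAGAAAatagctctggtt
Bst2: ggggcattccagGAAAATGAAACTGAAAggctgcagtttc
Rsad2: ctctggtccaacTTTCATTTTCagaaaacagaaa
Ifit3: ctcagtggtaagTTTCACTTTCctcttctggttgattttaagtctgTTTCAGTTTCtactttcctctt
Ifit1: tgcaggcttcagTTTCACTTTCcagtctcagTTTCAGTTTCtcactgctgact
The Isg15 stretch is chr4:156200863-156200908 on the minus strand, and its 3 overlapping matches run from 78 to 57 bases before the start site. The Bst2 stretch is chr8:71537575-71537614 on the minus strand, with 2 overlapping matches, and the Rsad2 stretch is chr12:26456551-26456584, also on the minus strand, with 1 match. Ifit3 and Ifit1 lie near each other on the plus strand of chromosome 19, at chr19:34583361-34583428 and chr19:34640773-34640825, and each holds 2 separate matches. Neither of the 2 windows of their neighbour Ifit2 held these letters. A match is a description of sequence and was not shown to be bound in these cells.

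In tuft cells, 5 of the 10 genes averaged at least 2-fold higher in labelled knockout than in wt cells: Bst2, Isg15, Ifi27l2b, Usp18 and Ifit1. Here and below, 2-fold means a difference of at least 1 in log2(mean TPM + 1). Among all 8795 genes with a mean of at least 1 TPM, 2.27% did. For 3 of the 10 that reached this mean, Bst2, Ifi27l2b and Ifi27, every labelled knockout plate set lay above every wt plate set, as for 1.85% of all genes that reached it, and the same held for Rsad2 below it. The difference, on the log2(mean TPM + 1) scale and with plate sets weighted equally, had a median of 0.91 over the 10 genes and of -0.16 over all genes. These shares only describe the choice of the genes, because the choice rests on the same contrast. Of the 10, 6 reached the mean of 1 TPM, while Rsad2, Mx1, Ifit3 and Ifit2 did not. With a pseudocount of 10 TPM, or with the mean of log values over cells, Bst2 and Ifi27l2b kept the 2-fold difference and Isg15, Usp18 and Ifit1 did not.

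**Figure D1:**
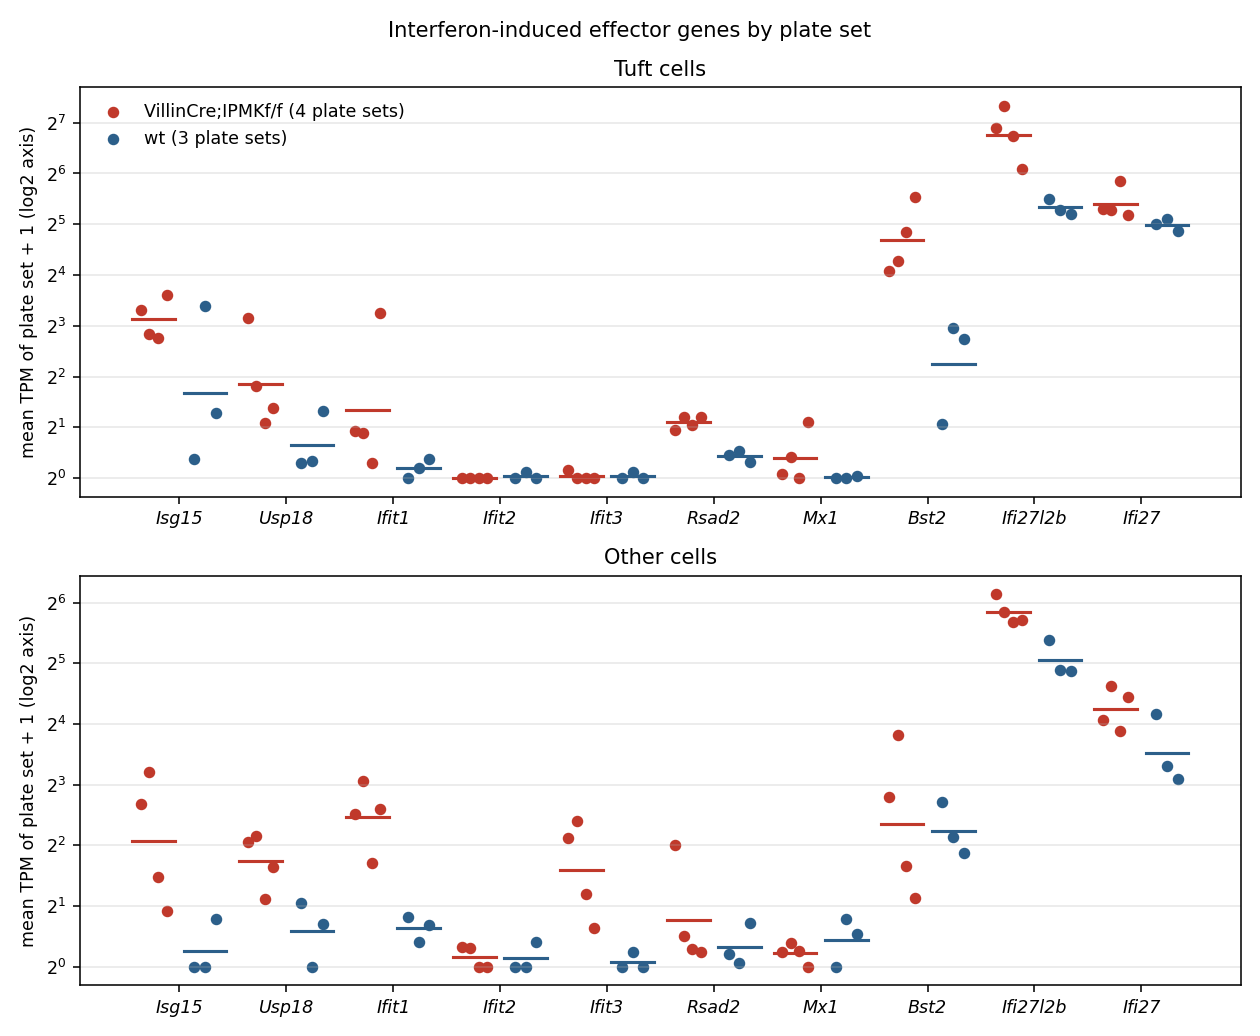
Mean TPM + 1 of each gene on a log2 axis, in tuft cells (top) and other cells (bottom), with labelled knockout (VillinCre;IPMKf/f) plate sets in red on the left of each gene and wt plate sets in blue on its right. Each point is 1 plate set and each line the mean of its genotype on the log scale; Bst2 and Ifi27l2b separate fully in tuft cells, Ifit1 and Ifit3 in other cells.

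Bst2 encodes tetherin, a membrane protein that holds budding virus particles on the cell surface. It averaged 15.9, 18.5, 27.7 and 45.4 TPM in tuft cells of labelled knockout plate sets 2, 4, 5 and 7, against 1.10, 6.73 and 5.72 TPM in wt plate sets 1, 3 and 6. The lowest labelled knockout value stood above the highest wt value, and the difference was 2.43 log2 units (SD between plate sets 0.86), the widest of the 10. It was detected in 29.9% of labelled knockout tuft cells and in 9.36% of wt tuft cells (exact 95% intervals 23.5% to 37.1% and 6.31% to 13.2%). Pooled over plate sets, the cells that had it held medians of 50.1 TPM in labelled knockout and 42.01 TPM in wt. By plate set these medians varied more. They were 38.2, 52.4, 74.8 and 160.9 TPM in labelled knockout plate sets 2, 4, 5 and 7. In wt plate sets 1, 3 and 6 they were 62.5, 49.8 and 30.2 TPM. Plate set 7 had 3 such cells and plate set 1 had 1.

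Ifi27l2b and Ifi27 belong to a family of small hydrophobic interferon-induced proteins, and they were the most abundant of the 10. Ifi27l2b averaged 117.9, 160.1, 106.3 and 66.6 TPM in tuft cells of labelled knockout plate sets 2, 4, 5 and 7, against 44.4, 37.98 and 35.9 TPM in wt plate sets 1, 3 and 6. The groups did not overlap, and the difference was 1.43 log2 units (SD 0.38). It was detected in 81.3% of labelled knockout and 56.5% of wt tuft cells, and here the amount per positive cell differed too, with medians of 108.5 TPM in labelled knockout and 40.7 TPM in wt cells. Ifi27 (GENCODE, GRCm38, chr12:103434211-103440239, plus strand) lies beside it (chr12:103450898-103457223, minus strand) and had a smaller difference. Its means were 38.3, 37.8, 56.9 and 35.4 TPM in the labelled knockout plate sets and 30.9, 33.5 and 28.04 TPM in the wt ones. They did not overlap, yet the difference of 0.42 log2 units (SD 0.23), or 0.27 without plate set 5, was far under 2-fold, and 51.9% of labelled knockout and 44.5% of wt tuft cells had the gene. Reads of close paralogs are shared out by a model in these data, so the split between Ifi27l2b and its paralog Ifi27l2a is uncertain.

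Isg15 encodes a ubiquitin-like protein that is attached to viral and host proteins, and Usp18 encodes the protease that removes it and also restrains the type I interferon receptor. Isg15 averaged 8.93, 6.12, 5.77 and 11.2 TPM in tuft cells of labelled knockout plate sets 2, 4, 5 and 7, against 0.29, 9.50 and 1.42 TPM in wt plate sets 1, 3 and 6. The groups overlapped because of wt plate set 3, where 1 cell at 448.8 TPM supplied 46.8% of all Isg15 in wt tuft cells. The difference was 1.45 log2 units (SD 1.13). It was 2.31 without plate set 3 and 0.79, under 2-fold, without wt plate set 1. Isg15 was detected in 14.4% of labelled knockout and 5.69% of wt tuft cells.

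Usp18 averaged 7.90, 2.51, 1.13 and 1.597 TPM in the labelled knockout plate sets 2, 4, 5 and 7, against 0.22, 0.26 and 1.499 TPM in wt plate sets 1, 3 and 6. Wt plate set 6 lay above labelled knockout plate set 5, so the groups overlapped. The difference was 1.21 log2 units (SD 0.77) and 0.78 without plate set 2. It was detected in 17.6% of labelled knockout tuft cells (exact 95% interval 12.5% to 23.9%) and 6.69% of wt tuft cells (4.13% to 10.1%).

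The Ifit proteins bind foreign RNA ends and block translation. Ifit1 averaged 0.91, 0.84, 0.23 and 8.51 TPM in tuft cells of labelled knockout plate sets 2, 4, 5 and 7, against 0, 0.15 and 0.29 TPM in wt plate sets 1, 3 and 6. The highest value came from 1 of the 9 cells of plate set 7, at 76.6 TPM, and wt plate set 6 lay above labelled knockout plate set 5. The difference was 1.15 log2 units (SD 0.93) with plate set 7 and 0.51 without it. Ifit1 was found in 14 labelled knockout (7.49%) and 6 wt tuft cells (2.01%). Ifit3 was found in 1 labelled knockout and 1 wt tuft cell. Ifit2 was found in 0 labelled knockout tuft cells, which by a limit of 3 cells allows a share of up to 1.604%, and in 2 wt tuft cells (0.67%). Ifit1 and Ifit3 have paralogs, Ifit1bl1 and Ifit3b, so their values are uncertain wherever reads are shared out between them.

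Rsad2 encodes viperin, a radical enzyme that makes a chain-terminating nucleotide, and Mx1 encodes a GTPase that traps viral nucleoproteins. Rsad2 averaged 0.92, 1.32, 1.08 and 1.304 TPM in tuft cells of labelled knockout plate sets 2, 4, 5 and 7, against 0.37, 0.45 and 0.24 TPM in wt plate sets 1, 3 and 6. All 4 labelled knockout values lay above all wt values at this low level, with a difference of 0.67 log2 units (SD 0.12) that was 0.12 with first plates only, and the gene was detected in 15.0% of labelled knockout and 7.36% of wt tuft cells. Mx1 was found in 4 labelled knockout and 1 wt tuft cell. GENCODE lists Mx1 as protein-coding and RefSeq as a transcribed pseudogene in the reference strain.

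**Figure D2:**
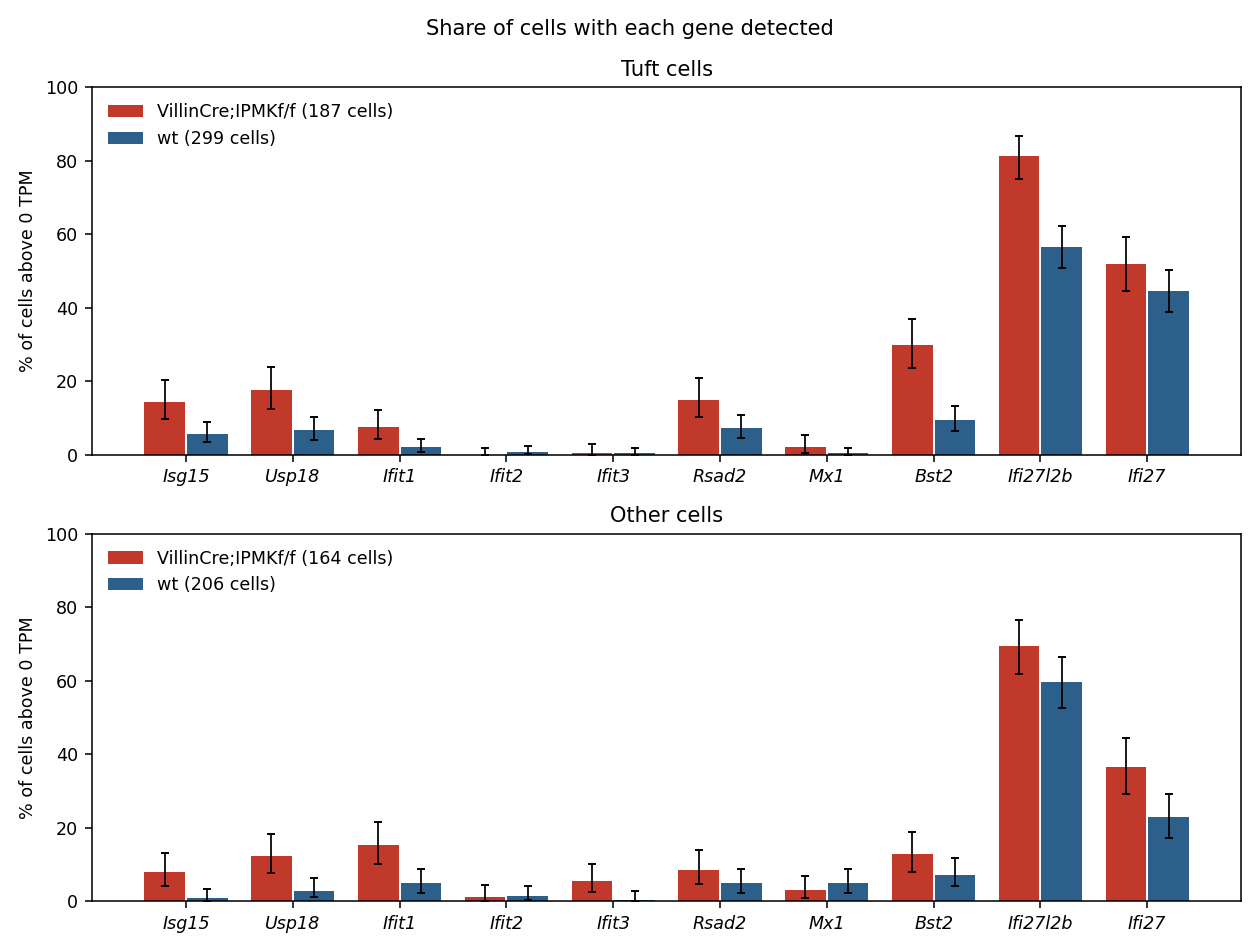
Share of cells above 0 TPM for each gene, in tuft cells (top) and other cells (bottom), labelled knockout in red and wt in blue. Error bars are exact 95% binomial intervals over pooled cells and cover counting error only; in tuft cells the intervals of Bst2, Ifi27l2b, Isg15 and Usp18 do not overlap between genotypes.

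The other cells lie outside the tuft class by their markers, although 69.5% of them in labelled knockout and 89.8% in wt carry the tuft sort label. A partly different set stood out in them. Ifit1, Isg15, Ifit3 and Usp18 averaged at least 2-fold higher in labelled knockout than in wt cells, that is, 4 of the 10, against 2.94% of 9184 genes. These 4 and Ifi27l2b, 5 of the 10, had every labelled knockout plate set above every wt plate set, against 2.61% of all genes. The median difference was 0.76 over the 10 genes and -0.11 over all genes. Among cells with at least 2000 genes detected, Isg15 stayed 2-fold higher, while the difference was 0.61 for Ifit1, 0.70 for Ifit3 and 0.41 for Usp18. With first plates only it was 0.87 for Ifit3 and 0.62 for Usp18, and with a pseudocount of 10 TPM none of the 4 reached 2-fold.

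Ifit1 averaged 4.74, 7.36, 2.28 and 5.03 TPM in other cells of labelled knockout plate sets 2, 4, 5 and 7, against 0.77, 0.32 and 0.61 TPM in wt plate sets 1, 3 and 6. The groups did not overlap, with a difference of 1.84 log2 units (SD 0.42) and detection in 15.2% of labelled knockout and 4.85% of wt cells. Ifit3, near absent from tuft cells, averaged 3.35, 4.30, 1.301 and 0.55 TPM in labelled knockout plate sets 2, 4, 5 and 7, against 0, 0.18 and 0 TPM in wt plate sets 1, 3 and 6. It was found in 9 labelled knockout cells (5.49%) and 1 wt cell (0.49%), a difference of 1.51 log2 units (SD 0.59).

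Isg15 was found in 13 labelled knockout cells and in 2 wt cells, both of plate set 6, with plate-set means of 0.90 to 8.25 TPM in labelled knockout and 0 to 0.73 TPM in wt cells. The difference was 1.81 log2 units (SD 0.81), and 1.07 with first plates only. Usp18 averaged 1.18 to 3.47 TPM in labelled knockout and 0 to 1.06 TPM in wt plate sets, a difference of 1.16 (SD 0.50) that was 0.87 without wt plate set 3. Ifi27l2b averaged 50.1 to 69.2 TPM in labelled knockout and 28.2 to 40.8 TPM in wt plate sets, a difference of 0.79 (SD 0.26) that was 0.26 with first plates only. Bst2, the gene with the widest difference in tuft cells, differed by 0.11 in other cells (SD 0.90) and by -0.38 without plate set 4, at 1.19 to 13.1 TPM in labelled knockout and 2.67 to 5.55 TPM in wt plate sets. Ifi27 differed by 0.73 (1.05 without wt plate set 1), Rsad2 by 0.43 (0.02 without plate set 2), Ifit2 by 0.02 and Mx1 by -0.22, with overlapping groups.

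Leukocytes also express these genes, and the other cells held some cells with their markers. The sum of 18 leukocyte markers ranged from 0.17 to 2580 TPM in the other cells of labelled knockout plate sets and from 36.9 to 1656 TPM in those of wt plate sets. In tuft cells it was 8.10 to 11.7 TPM in labelled knockout and 8.92 to 19.7 TPM in wt plate sets; 9 of the 18, among them Lyz2, Cd3e and Siglech, were at 0 in every tuft cell, and most of the sum was Ptprc, detected in 72.6% of tuft cells. Without the 28 cells that had at least 2 of these markers at 10 TPM or more, 1 of them a tuft cell, the differences in other cells were 1.89 for Ifit1, 1.55 for Ifit3, 1.89 for Isg15, 1.56 for Usp18 and 1.33 for Bst2. For Bst2 this was the highest of 19 alternatives, which ran from -0.38 to 1.33, against 0.11 as reported. Colonocyte marker sums, given above, overlapped between the genotypes in the other cells, although all 10 markers averaged higher in labelled knockout. Tuft marker sums did not overlap there, at 58.7 to 159.2 TPM in labelled knockout and 198.3 to 292.04 TPM in wt plate sets. Of the 14 tuft markers, 0 averaged higher in labelled knockout. The part of either in the differences was not tested.

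Compared with other cells of the same plate set, tuft cells held more Ifi27, in 7 of 7 plate sets, by 1.28 log2 units on average (SD 0.56, n = 7 plate sets). It was the only one of the 10 that was at least 2-fold higher with the same sign in every plate set, as 6.92% of 9392 genes were. Ifi27l2b was also higher in 7 of 7 plate sets, by 0.65 (SD 0.48). None was at least 2-fold lower in every plate set, against 11.5% of all genes. Ifit1 was lower in 6 of 7 plate sets, by 0.84 on average (a difference of -0.84, SD 0.97). Bst2 was 2.34 log2 units higher in tuft than in other cells within labelled knockout plate sets and 0.01 within wt plate sets. Recomputed after seeing the data without the cells with leukocyte markers, these differences were 2.40 and 1.26. Without wt plate set 1 the wt value was 0.84. The gap between the genotypes, 2.32 as reported, was smaller in both settings. It ran from 1.11 to 2.95 over 19 alternatives, and the plate sets of the genotypes overlapped. For Ifit3 the difference of tuft from other cells was -1.55 within labelled knockout plate sets and -0.04 within wt plate sets. Among cells with at least 2000 genes these values were -0.79 and -0.10. Ifit3 was found in 1 tuft cell of each genotype and in 1 wt other cell. Its contrast therefore restates the 9 labelled knockout other cells that had it.

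Several of the genes were found together in many single cells. Over the plate sets, 38.4 ± 7.86% of labelled knockout tuft cells and 10.9 ± 5.003% of wt tuft cells had 3 or more of the 10 above 0 TPM (SD, n = 4 and 3 plate sets). The plate-set shares were 43.4%, 38.6%, 27.3% and 44.4% in labelled knockout plate sets 2, 4, 5 and 7, against 5.26%, 14.9% and 12.5% in wt plate sets 1, 3 and 6, with no overlap. Pooled, they were 69 labelled knockout tuft cells (36.9%, exact 95% interval 30.0% to 44.2%) and 35 wt tuft cells (11.7%, 8.29% to 15.9%). At least 5 of the genes were detected in 14 labelled knockout and 7 wt tuft cells, and the most in 1 cell was 8 in labelled knockout and 7 in wt. Among other cells, 22.6 ± 7.99% of labelled knockout and 5.60 ± 3.59% of wt cells had 3 or more.

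**Figure D3:**
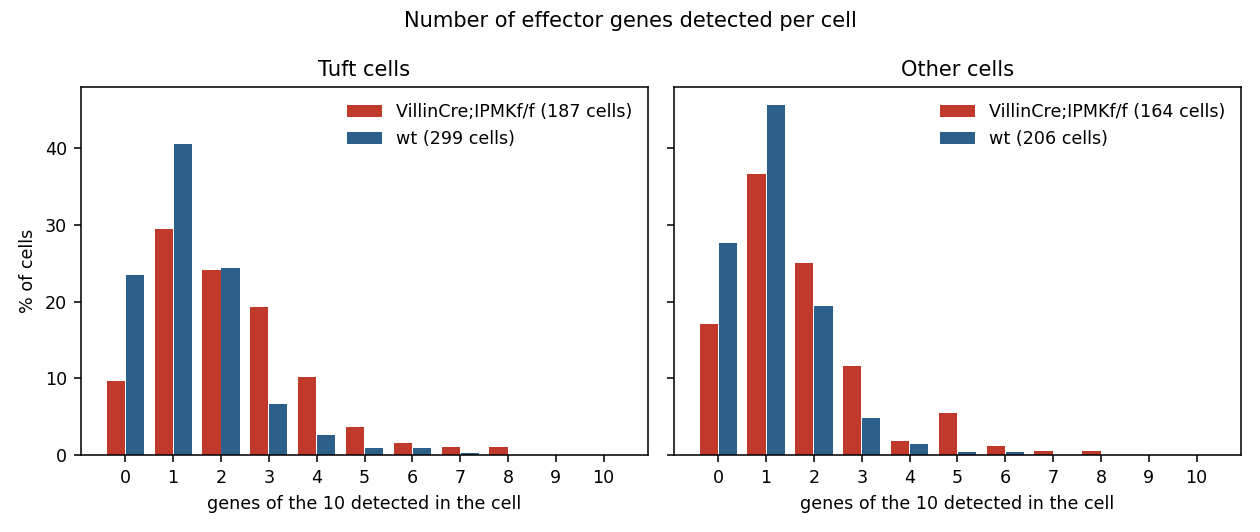
Percent of cells, pooled over plate sets, with each number of the 10 genes above 0 TPM, for tuft cells (left) and other cells (right), labelled knockout in red and wt in blue. At 3 to 8 genes the labelled knockout bars are higher than the wt bars in both panels, and at 0 and 1 gene the wt bars are higher.

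Tuft cells with any of the 10 genes had more genes detected, by the median, than tuft cells without it, in each genotype where it was found. Tuft cells were therefore also divided at their median of 2654 genes detected. In the lower part, 20.95% of labelled knockout and 4.35% of wt tuft cells had 3 or more of the 10. In the upper part, 57.3% of labelled knockout and 18.01% of wt tuft cells did. The share was higher in labelled knockout cells in both parts, and it was higher in the upper part for both genotypes. In other cells some of the genes went the other way. Labelled knockout other cells with Ifit3 had a median of 1975 genes detected, against 2724 in those without it. For Mx1 these medians were 1661 and 2567 in labelled knockout and 1780.5 and 2841 in wt other cells. For Ifit2 they were 2455.5 and 2527.5 in labelled knockout other cells.

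Pairs of the genes met in the same tuft cell more often than the product of their shares within plate sets gives. Of 45 pairs, 18 had a product of at least 5 cells, and all 18 exceeded it, by ratios of 1.05 to 3.31 with a median of 1.32. Among these 18 the highest ratio was that of Isg15 and Usp18, found together in 22 tuft cells against a product of 6.64. Some pairs with a smaller product had higher ratios, such as Isg15 and Ifit1 with 14 cells against 2.61, and others were never found together. Rsad2 and Usp18 shared 21 cells against 7.05, and Isg15 and Rsad2 shared 16 against 5.61. With the product taken within the lower and upper parts by genes detected as well, an alternative chosen after seeing the data, the ratios of the 18 pairs ran from 1.00 to 2.93 with a median of 1.21. The ratio stayed at 2.93 for Isg15 and Usp18, whereas that of Ifi27l2b and Ifi27, the most abundant pair, came to 1.00. Among other cells, 11 of 13 such pairs exceeded the product, with a median ratio of 1.24.

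**Figure D4:**
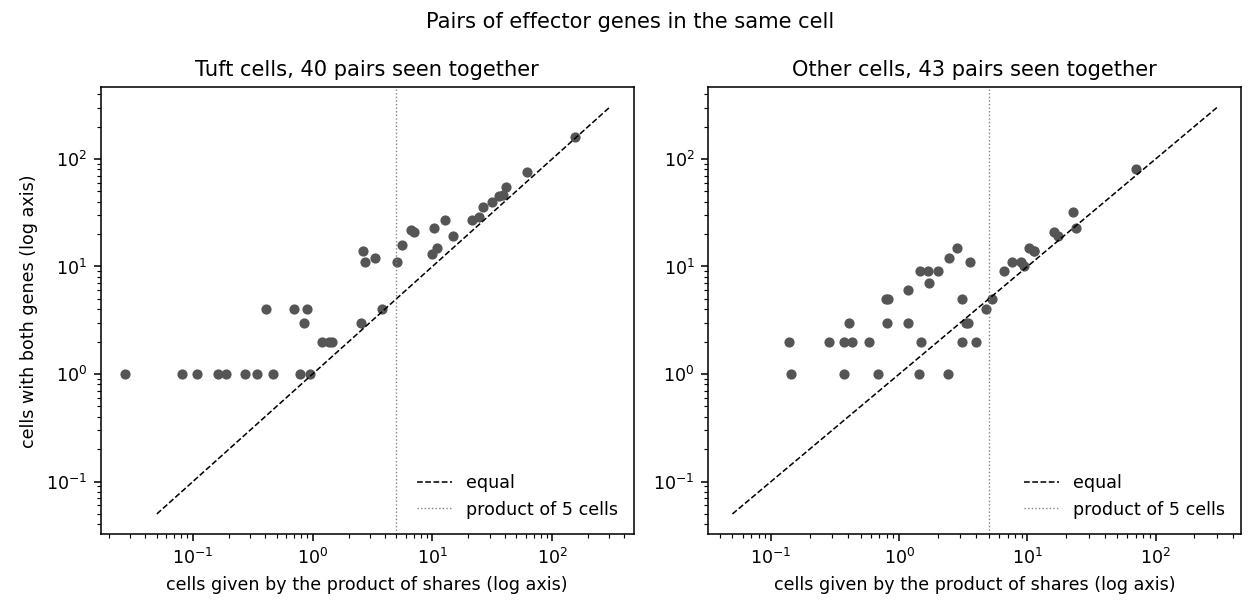
Number of cells with both genes of a pair (vertical, log axis) against the number given by the product of their shares within plate sets (horizontal, log axis), for tuft cells (left) and other cells (right); each point is 1 pair found together at least once. The dashed line marks equality and the dotted line a product of 5 cells; to its right all 18 tuft pairs lie above equality.

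Over tuft cells, each gene's log2(TPM + 1) was correlated with the mean of the other 9 after centring within plate sets, as a description. Pearson's r was 0.41 for Usp18, 0.38 for Bst2, 0.37 for Isg15, 0.36 for Ifit1, 0.30 for Ifi27l2b and for Rsad2, 0.20 for Ifi27 and 0.19 for Mx1 over all tuft cells. Ifit2 and Ifit3, nearly undetected, had 0.07 and 0.06. Among 7911 other genes detected in at least 10% of tuft cells, the first 10 by likeness to the mean of the 10 included Cd24a (r = 0.54), H2-D1 (0.53), Cdhr5 (0.52), Krt8 (0.51), Krt18 (0.51), B2m (0.50), Itm2b (0.49), Sepp1 (0.48) and Cdhr2 (0.48), against a median r of 0.12. H2-D1 and B2m encode the chains of a class I antigen-presenting molecule, and Krt18 and Cd24a are abundant tuft cell genes. The mean of the 10 also had r = 0.42 with the number of genes detected in the cell, which these values share. With that number regressed out, an alternative chosen after seeing the data, 7 of the first 10 genes stayed among the first 10, and Oas3 (partial r = 0.42) and Oasl2 (0.39) were among those that joined them.

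The rest of the pathway was read from 10 lists by role, of which 1 listed gene was not found in the table. In tuft cells 66 of the listed genes reached a mean of 1 TPM. Of these, 21 averaged at least 2-fold higher in labelled knockout cells, where 2.27% of all genes did, and 0 at least 2-fold lower, where 6.52% of all genes did. In 23 every labelled knockout plate set lay above every wt one, as in 1.85% of all genes. The 21 were 4 with a pseudocount of 10 TPM and 8 with the mean of log values. Their median difference was 0.43 log2 units, against -0.16 over all genes. In other cells 66 reached the level, and 10 were at least 2-fold higher, against 2.94% of all genes, with a median of 0.40. Another 2 were at least 2-fold lower, against 5.98% of all genes, the type I receptor chain gene Ifnar1 and the inhibitor gene Socs3, both named after their values were seen. Ifnar1 averaged 1.49 ± 0.79 TPM in labelled knockout and 6.58 ± 5.14 TPM in wt other cells, and Socs3 0.86 ± 0.73 and 2.58 ± 0.54 TPM (SD, n = 4 and 3 plate sets). The inhibitor gene Socs1 went the other way and was among the 10 that were higher. Socs1 averaged 3.00 ± 0.71 TPM in labelled knockout and 0.76 ± 0.69 TPM in wt other cells. Every labelled knockout plate set lay above every wt one, as for 2.61% of all genes. It too was named after its values were seen. Earlier results on some of these genes were known when the lists were drawn up.

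**Figure D5:**
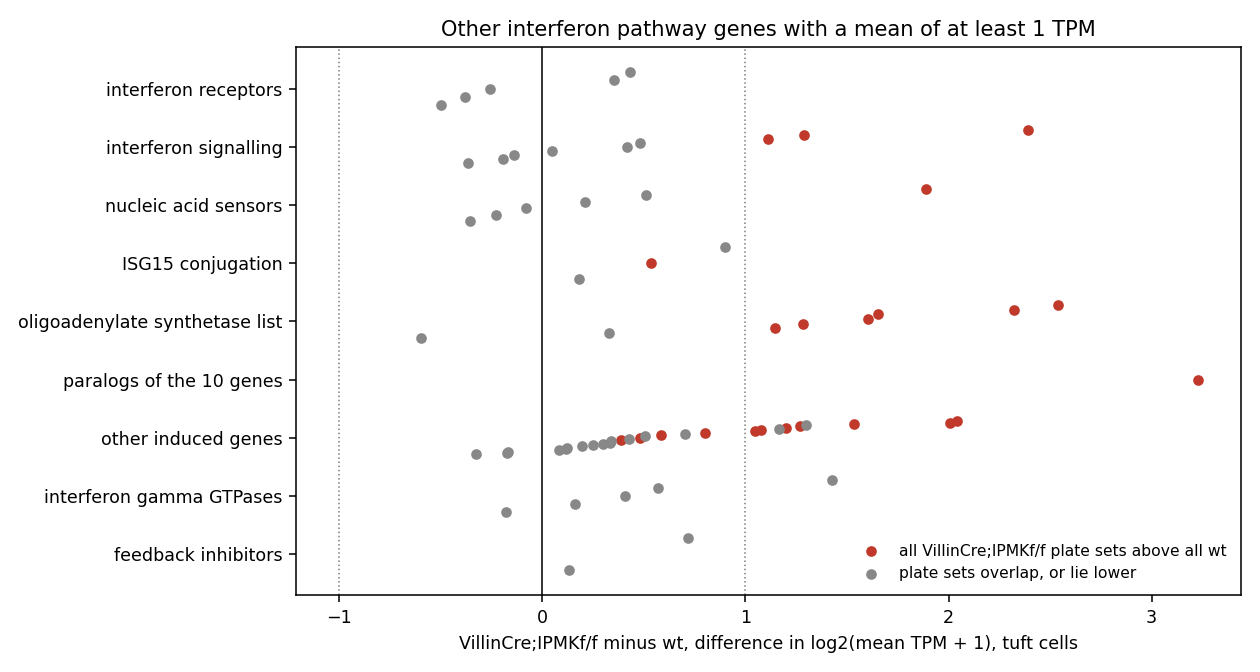
Difference between labelled knockout and wt tuft cells in log2(mean TPM + 1) for the 66 pathway genes with a mean of at least 1 TPM, by role; each point is 1 gene. Red points have all labelled knockout plate sets above all wt ones; oligoadenylate synthetases hold 6 of them, receptors none, and no gene lies below -1, the dotted line for 2-fold lower.

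No interferon gene was measurable. Of 21 ligands, 0 reached a mean of 1 TPM in either cell class. Ifnz was seen in 2 kept cells and Ifnl2 in 1, both named after their values were seen, and the others were at 0. Of 6 receptor chains, 5 reached the level in tuft cells and 0 differed 2-fold. Ifngr1, a chain of the type II receptor, averaged 3.83 ± 2.65 TPM in labelled knockout and 4.84 ± 2.72 TPM in wt tuft cells, its partner Ifngr2 3.13 ± 1.92 and 1.77 ± 0.16 TPM, and Ifnar2, of the type I receptor, 4.48 ± 0.99 and 6.09 ± 1.01 TPM (SD, n = 4 and 3 plate sets).

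Of 9 kinases and transcription factors of the pathway, 3 were at least 2-fold higher in labelled knockout tuft cells, against 2.27% of all genes. These 3 had no overlap of plate sets, against 1.85% of all genes. Irf7, which amplifies interferon production and is itself induced by interferon, averaged 106.3, 82.5, 92.5 and 265.7 TPM in labelled knockout plate sets 2, 4, 5 and 7, against 13.8, 27.9 and 28.8 TPM in wt plate sets 1, 3 and 6. The difference was 2.39 log2 units, nearly that of Bst2, with plate set 7 the highest for both genes. Irf9 averaged 9.73 ± 3.95 TPM in labelled knockout and 3.85 ± 2.81 TPM in wt tuft cells, a difference of 1.29 that was 0.75, under 2-fold, without wt plate set 1. In other cells the differences were 1.20 for Irf7 and 0.85 for Irf9.

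Among sensors of nucleic acid, 1 of 6 was at least 2-fold higher, against 2.27% of all genes. Zbp1, a sensor of Z-form nucleic acid, averaged 7.11 ± 2.99 TPM in labelled knockout and 1.08 ± 0.38 TPM in wt tuft cells, with no overlap. Dhx58 averaged 6.57 ± 5.38 and 3.52 ± 3.65 TPM and Ddx58, the RNA sensor RIG-I, 7.09 ± 3.14 and 10.4 ± 8.30 TPM, both with overlapping groups. Without plate set 7 Dhx58 differed by 1.31, against 0.51 with it, and by 1.13 without wt plate set 3. Of the enzymes that attach ISG15, 0 of 3 differed 2-fold. Ube2l6, its conjugating enzyme, averaged 4.20 ± 2.74 TPM in labelled knockout and 1.59 ± 0.65 TPM in wt tuft cells (difference 0.90, and 1.15 without plate set 7 or 1.10 without wt plate set 1), the ligase gene Trim25 18.4 ± 6.23 and 11.9 ± 0.69 TPM (0.54, with no overlap by a narrow margin), and the activating enzyme gene Uba7 6.65 ± 5.68 and 4.88 ± 2.63 TPM (0.18).

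The oligoadenylate synthetases are induced by interferon, and their active members sense double-stranded RNA. Of 8 genes on the list of this pathway, 6, all synthetases, were at least 2-fold higher in labelled knockout tuft cells, against 2.27% of all genes, with a median difference of 1.44 log2 units. With a pseudocount of 10 TPM 2 of the 8 were. The synthetase gene Oasl1 differed by 0.33. Oas2 averaged 18.02, 25.3, 23.03 and 34.1 TPM in labelled knockout plate sets 2, 4, 5 and 7, against 1.35, 4.82 and 5.16 TPM in wt plate sets 1, 3 and 6. The groups lay far apart, with a difference of 2.54 log2 units, and 82.4% of labelled knockout and 39.8% of wt tuft cells had the gene. Oas3 averaged 7.37 ± 2.29 TPM in labelled knockout and 0.72 ± 0.64 TPM in wt tuft cells, and Oasl2 23.96 ± 3.08 and 6.90 ± 0.25 TPM. In other cells the difference of Oasl2 was 2.56 and that of Oas2 was 0.80.

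Of the paralogs of the 10 genes, 1 reached 1 TPM in tuft cells. Ifi27l2a averaged 45.7, 54.1, 27.7 and 17.4 TPM in labelled knockout plate sets 2, 4, 5 and 7, against 0, 2.82 and 11.7 TPM in wt plate sets 1, 3 and 6. These values came from few cells, 12.8% of labelled knockout and 3.01% of wt tuft cells, and the difference was 3.23 log2 units with no overlap, or 0.79 with the mean of log values. Among 27 further induced genes, 9 were at least 2-fold higher, against 2.27% of all genes, and 0 lower, against 6.52%. Sp100, a nuclear body protein, averaged 11.3 ± 5.89 TPM in labelled knockout and 1.79 ± 0.46 TPM in wt tuft cells. Parp14 averaged 8.19 ± 4.34 and 1.10 ± 0.45 TPM, and Rtp4 5.84 ± 1.67 and 1.34 ± 0.50 TPM, each of these with no overlap. With a pseudocount of 10 TPM the differences of Sp100, Parp14 and Rtp4 were 0.81, 0.68 and 0.48, under 2-fold.

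Among GTPase genes induced chiefly by interferon gamma, 1 of 5 was at least 2-fold higher, against 2.27% of all genes. It was Gbp3, at 4.63 ± 2.16 TPM in labelled knockout and 1.08 ± 0.90 TPM in wt tuft cells, with overlapping groups. Igtp averaged 1.91 ± 0.80 and 0.93 ± 0.38 TPM and Ifi47 1.36 ± 0.68 and 0.72 ± 0.10 TPM. Of the inhibitors, 0 of 2 differed 2-fold: the phosphatase gene Ptpn2 averaged 3.50 ± 1.78 TPM in labelled knockout and 1.66 ± 0.78 TPM in wt tuft cells, and Pias1 1.19 ± 0.46 and 0.98 ± 0.26 TPM. All these SDs are over 4 labelled knockout and 3 wt plate sets.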

How the data were processed

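Single wells were the samples. The deposited table holds TPM, computed by the authors. Bowtie2 2.4.2 and RSEM 1.3.3 are listed as tools, and mm10 as the build, in the submitters' processing notes. Tool settings, annotation, strand handling and read depth, not given in the sources used here, stay unknown. RSEM shares out reads of near-identical transcripts by a model. Ribosomal RNA held 76.5% to 80.3% of TPM in tuft cells and 65.7% to 80.0% in other cells by plate set, so levels of other genes are compressed. The 92 spike-in entries were at 0 TPM. The 38 columns of a near-empty second plate of plate set 7 were not used. Doublets were not searched for, and no columns of kept cells were identical.

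Per plate set and cell class, mean TPM was taken, and genotypes were contrasted on log2(mean + 1), each plate set counting the same, which understates differences of low genes. A call was a 2-fold difference or no overlap of plate sets, among genes with a mean of at least 1 TPM. No test was run, because each genotype is 1 sample. Shares have exact Clopper-Pearson 95% intervals; a count of 0 allows 3 cells. Both cover counting error only. Named were the 10 genes, Ipmk, the 3 listed genes with the widest difference per role list, and the 10 genes most correlated with the mean of the 10; values of some of these are not reported here. The genes and lists were chosen with earlier results of these data known. Python 3.11.15 with pandas 2.3.3, numpy 2.4.6 and scipy 1.17.1 was used; the code was tested on simulated data. Alternatives covered the pseudocount, averaging, cell filters, markers, labels, plates, scaling and each plate set left out. Gene positions are GENCODE, build GRCm38; promoters are RefSeq, GRCm38.p6.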

Additional observations from a re-analysis of the deposited data

Results flagged for a closer look

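In 4 of 21 groups of 4 labelled knockout plate sets, 1 plate set lay farther from the rest than Dixon's 95% criterion allows. For normally distributed values, chance alone gives this in about 1 of 20 groups. These means are often carried by few cells, so that rate need not hold and the count cannot be judged against it. A group with 1 plate set above 0 and the rest at 0, as for Ifit3 in tuft cells, is always flagged. Ifit1 in tuft cells stood at 8.507 TPM in plate set 7, where 1 of 9 cells carried the gene, against 0.23 to 0.91 TPM in the other labelled knockout plate sets. Ifi27 in tuft cells stood at 56.86 TPM in plate set 5, where the highest single cell reached 616 TPM, against 35.4 to 38.3 TPM. Ifit3 in tuft cells stood at 0.1189 TPM in plate set 2, from 1 cell, and at 0 in the others. Rsad2 in other cells stood at 3.029 TPM in plate set 2, against 0.19 to 0.41 TPM. The wt groups have 3 plate sets and were not examined in this way.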

How the results depend on the processing

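No paired analysis of the genotypes was possible, because no plate set held both of them. The number of the 10 genes at least 2-fold higher in labelled knockout tuft cells, 5 as reported, was 2 with a pseudocount of 10 TPM and 2 with the mean of log values, and 4 to 5 with a plate set left out. Their median difference, 0.91, was 0.28 with 10 TPM, 1.48 with 0.1 TPM, 0.39 with the mean of logs and 1.52 after rescaling without 57 abundant and mitochondrial genes. In other cells the count, 4, was 0 with 10 TPM, 1 with the mean of logs, 1 with cells of at least 2000 genes and 2 with first plates only. The count higher in tuft than other cells, 1, was 0 with 10 TPM, 0 with 2000 genes, 0 with looser markers, 2 without leukocyte-marker cells and 1 to 2 with a plate set left out; the count lower, 0, was 1 with looser markers and 0 to 1 with a plate set left out. The gap in tuft cells with 3 or more of the genes, 27.5 percentage points, was 37.5 with 2000 genes. No called difference changed sign. The background of genes at least 2-fold higher in tuft cells ran from 0.27% with 10 TPM to 6.04% after rescaling, against 2.27%. Of the 66 pathway genes, 21 were at least 2-fold higher in labelled knockout tuft cells as reported, 4 with 10 TPM, 8 with the mean of logs and 18 to 24 under the other settings, and 0 to 2 were 2-fold lower; these were recomputed after seeing the data. The oligoadenylate synthetase list kept a positive median, 0.73 to 1.73, with 2 of 8 at least 2-fold higher with 10 TPM and 5 or 6 otherwise. The cause of these shifts was not tested. Ifit2, Ifit3 and Mx1 were seen in so few tuft cells that a difference was not detectable.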
